A study of Mus musculus with 4 samples.

Results

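Antigen processing and presentation was described here through 34 genes of the 32285 measured, in RNA and in open chromatin of the same nuclei from mouse liver dendritic cells and the cells sorted with them. The genes were taken from a fixed list by symbol, and all 34 were present in both RNA matrices. Of these, 10 encode class II molecules or their assembly and control, 6 act in the endolysosome, 14 encode class I molecules or supply them with peptide, 3 take part in cross-presentation and 1 presents lipid. Open chromatin was read in regions within 2 kb of the first or the last listed start site of each gene. This gave 58 of the 127216 regions that both libraries shared.

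The study used the Multiome assay, which reads RNA and open chromatin (ATAC-seq) from 1 nucleus. C57BL/6J mice, male and aged 6 to 12 weeks per the study's methods, received chow with 0.1% DDC, that is 3,5-diethoxycarbonyl-1,4-dihydrocollidine, a compound that damages bile ducts, for 0 days (D0) or 5 days (D5), and alive CD45+ CD64− CD11c+ liver cells were sorted before nuclei were extracted. Each day was 1 library with an RNA and an ATAC sample (4 samples in all), and no difference between days had a replicate check. Intervals in the text are 95% intervals that cover counting error only. The interval beside a group median is the mean interval of the gene or genes in the middle of the group. It does not describe the spread of the group.

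The RNA layer held 44496348 UMIs (unique molecular identifiers) in 16260 barcodes at D0 and 94374499 UMIs in 27873 barcodes at D5. After filters on depth, mitochondrial share and doublet score, 10980 nuclei of D0 and 19834 of D5 remained, and 591 barcode sequences occurred in both libraries. Nuclei were clustered without the 34 genes and named from marker lists, a marker being raised when it was at least 2-fold over the other clusters, with the ending "-like" because the names rest on markers alone. All 12 listed markers were raised in the pDC-like cluster (plasmacytoid dendritic cells) and in the Ccr7+ DC-like cluster, and 9 of 10 macrophage markers were raised in the macrophage-like cluster although the sort had excluded CD64+ cells. The cDC1-like clusters (type 1 conventional dendritic cells) raised 12 and 9 of 12 markers, the cDC2-like clusters (type 2) raised 5 to 7 of 12 markers, and the preDC-like cluster raised 6 of 10 markers of its state together with 3 markers of pDC. The pDC-like cluster also raised 6 markers of the preDC state, and Tcf4 and Bcl11a are in both lists. Finer clustering (Leiden resolution 2.0) split the macrophage-like nuclei into 3 main clusters whose shares differed between days, so that their levels on the 2 days come from different mixtures of nuclei. The cluster led by Inhba and Slc7a2 held 329 of 802 macrophage-like nuclei at D0 but 14 of 1399 at D5, the one led by Mertk and C1qa 228 and 534, and the one led by Klra2, which was named nonclassical monocyte-like at that resolution, 202 and 737. Shares differed in other classes too. The clusters named pDC-like at that resolution held 671, 1160 and 492 nuclei at D0 and 1189, 549 and 258 at D5. Of those named cDC2-like, the one led by Tnfsf9 and Tnip3 held 225 and 1805, and the one led by Il1a and Mt2 775 and 565. The part of these mixtures in differences between days was not tested. The clusters named neutrophil-like (5 nuclei at D0 and 89 at D5) and endothelial-like (31 and 5) held too few nuclei and were left out, so the 9 classes described are the other named ones. Clusters that met no naming rule were outside the 9 classes too. The largest, led by Il1r2 and Dab2, held 234 nuclei at D0 and 2309 at D5, or 11.6% of the D5 nuclei. Others raised markers of more than 1 lineage after doublet removal. Those led by Atp8a2 held 588 and 79 nuclei, by Plce1 223 and 82, and by Cables1 196 and 29. A level is given as UMIs of the gene per 1000000 UMIs of all nuclei of a class on that day (CPM), and a ratio as the log2 of 2 such levels. A ratio counted as past 1.5-fold when it reached 1.5-fold in either direction with at least 20 counts over both sides. TMM, another way to set libraries on 1 scale, gave log2 scaling factors of D5 over D0 from -0.33 in cDC1-like to -0.15 in pDC-like nuclei, and every log2 ratio of D5 over D0 in a class is higher with TMM by the size of its factor. The 9 classes come from the same 2 libraries. A day difference with 1 direction in several classes is therefore not a set of separate observations. The share of all genes with 1 direction in all 9 classes was not computed.

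Class II molecules hold peptides from endocytosed protein for CD4+ T cells. Their chains assemble in the endoplasmic reticulum on the invariant chain Cd74, which is digested in endolysosomes before H2-DM exchanges its last fragment for peptide, with H2-DO acting as a brake on H2-DM. Class I molecules hold peptides made by the proteasome and pumped by the TAP transporter, and cross-presentation brings endocytosed antigen onto class I, a task for which type 1 conventional dendritic cells (cDC1) are known.

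Among the 9 classes at D0, the genes of the class II chains were highest in cDC2-like nuclei and lowest in pDC-like, NK cell-like and T cell-like nuclei. H2-Aa, the alpha chain of I-A, had 9679 CPM in cDC2-like nuclei, 8135 in macrophage-like nuclei and 6196 in cDC1-like nuclei at D0. It had 6123 CPM in Ccr7+ DC-like, 3069 in preDC-like and 2531 in nonclassical monocyte-like nuclei. In pDC-like nuclei it had 2101 CPM, which was close to the 1851 of NK cell-like and the 1589 of T cell-like nuclei. The order of classes was the same for H2-Ab1, the beta chain of I-A, from cDC2-like over macrophage-like to cDC1-like nuclei, with 10578, 8658 and 7263 CPM at D0. H2-Eb1, the beta chain of I-E, had 10195 CPM in cDC2-like, 6382 in cDC1-like and 1619 in pDC-like nuclei. Cd74 had 20821 CPM in cDC2-like, 12225 in cDC1-like, 7392 in preDC-like and 3967 in pDC-like nuclei.

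**Figure D1:**
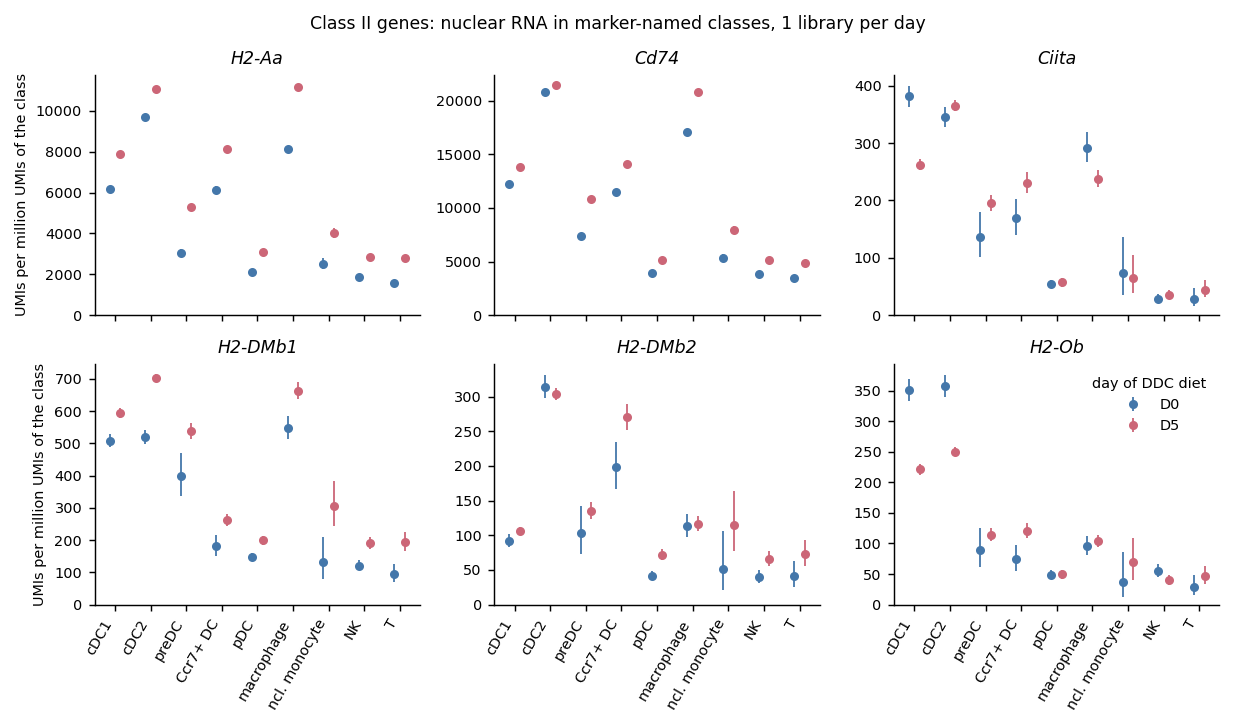
RNA level in CPM of H2-Aa, Cd74, Ciita, H2-DMb1, H2-DMb2 and H2-Ob in each of the 9 classes at D0 and D5, 1 panel a gene, with bars for the 95% counting interval. cDC2-like nuclei stood at 9679 CPM of H2-Aa at D0 and pDC-like nuclei at 2101 CPM, and the D5 point of H2-Aa was higher in each of the 9.

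The contrasts of other classes over cDC2-like nuclei share the cDC2-like nuclei as denominator and are given side by side. In pDC-like nuclei all 10 class II genes were lower than in cDC2-like nuclei at D0 by at least 1.5-fold, where 22.2% of all genes tested were, with a median log2 ratio of -2.45 (-2.48 to -2.42) against 0.22 over all genes. The median was -1.45 when no nuclei were removed by doublet score. At D5 it was -2.05, with 10 of 10 genes past 1.5-fold and 22.5% of all genes. All 10 genes were also lower by at least 1.5-fold in Ccr7+ DC-like nuclei (median -1.06, all genes 28.9% lower), in NK cell-like nuclei (median -2.42, all genes 20.4%) and in T cell-like nuclei (median -2.70, all genes 24.8%). In cDC1-like nuclei 9 of 10 were lower and 5 were past 1.5-fold (median -0.59), beside 14.1% of all genes.

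NK cells and T cells of the mouse are not known for class II expression, so the level in their nuclei is given as a background for the other classes. Over NK cell-like and T cell-like nuclei together, called lymphoid nuclei in what follows, H2-Aa reached 1799 CPM at D0 and 2844 at D5. The corresponding lymphoid levels were 1934 and 2865 for H2-Ab1 and 3802 and 5066 for Cd74. In pDC-like nuclei H2-Ab1 had 1859 CPM at D0 and 2866 at D5, close to the lymphoid levels of the same days. The pDC-like level of H2-DMa was 205 CPM at D0 beside a lymphoid 191, and that of H2-DMb2 was 41.95 beside 39.98. The pDC-like levels of these genes were thus at or near the background, whose part in the result was not tested.

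Among the peptide-loading genes the classes differed by chain. H2-DMa, the alpha chain of H2-DM, had 842 CPM in cDC2-like, 818 in macrophage-like, 756 in preDC-like and 646 in cDC1-like nuclei at D0, and 289 in Ccr7+ DC-like nuclei. H2-DMb1, a beta chain of H2-DM, had 520.0 CPM in cDC2-like nuclei against 509 in cDC1-like nuclei, a log2 ratio of -0.03 (-0.12 to 0.06). H2-DMb2, the other beta chain, had 314 CPM in cDC2-like nuclei but 91.9 in cDC1-like, 103 in preDC-like and 113 in macrophage-like nuclei. Its log2 ratio of cDC1-like over cDC2-like nuclei was -1.77 (-1.94 to -1.61) at D0 and -1.52 (-1.62 to -1.43) at D5. The 2 beta chain genes are near-identical copies, so the split of reads between them is uncertain.

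H2-Oa and H2-Ob encode the chains of H2-DO, and their levels did not follow each other across classes. H2-Oa had 273 CPM in cDC2-like nuclei against 129 in cDC1-like nuclei at D0, a log2 ratio of -1.08 (-1.23 to -0.93) for cDC1-like over cDC2-like. H2-Ob had 357 CPM in cDC2-like nuclei against 351 in cDC1-like nuclei, a log2 ratio of -0.02 (-0.13 to 0.08), and 74.3 in Ccr7+ DC-like nuclei. The lymphoid level of H2-Ob was 50.3 CPM.

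In preDC-like nuclei 8 of 10 class II genes were lower than in cDC2-like nuclei by at least 1.5-fold at D0, where 20.3% of all genes were, with a median of -1.63. The genes not past that fold were H2-DMa, at -0.16, and H2-DMb1, at -0.38. The TMM log2 factor of this contrast was 0.34, and every ratio in it is lower with TMM by that size. With TMM H2-DMb1 was therefore past 1.5-fold too, while H2-DMa was not. At D5 the count was 8 of 10 and the median -1.10, beside 12.3% of all genes. The summed level of the 12 pDC markers in preDC-like nuclei was 7821 CPM at D0 and 5057 at D5, against 15009 and 14281 in pDC-like nuclei. The part of this lower pDC marker level in the difference between days was not tested. The 10 markers of the preDC state summed to 8427 CPM at D0 and 6328 at D5 in preDC-like nuclei. Their sums were higher in pDC-like nuclei, with 11146 and 11103 CPM, so the preDC-like name does not rest on markers highest in that class.

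From D0 to D5 the class II genes differed by less than 1.5-fold in conventional dendritic cells in CPM, with H2-Ob in cDC1-like nuclei as the exception. In cDC2-like nuclei 7 of 10 were higher and 3 lower at D5 in CPM (of the latter, H2-Eb1 and H2-DMb2 were higher with TMM), and none was past 1.5-fold, where 6.26% of all genes were higher and 20.1% lower by that much. The median was 0.08 (-0.01 to 0.17), against -0.17 over all genes, and 0.36 with TMM. Within the clusters that made up the cDC2-like class it was 0.03, 0.09 and 0.35 in CPM. The last of these held 372 of 2135 nuclei at D0 but 410 of 5949 at D5, and the part of such shifts was not tested. Cd74 had 20821 CPM at D0 and 21447 at D5. H2-DMb1, with 520.0 CPM at D0 and 702 at D5, had the largest ratio of the 10, 0.43 (0.37 to 0.50), and was the one gene past 1.5-fold with TMM, at 0.72 (16.5% of all genes higher, 10.9% lower). H2-Ob had 357 CPM at D0 and 249.8 at D5, a ratio of -0.52 (-0.60 to -0.43), the lowest of the group. In cDC1-like nuclei the median was 0.18 (0.16 to 0.19) against -0.24 over all genes, and 0.51 with TMM. H2-Ob, with 351 CPM at D0 and 221 at D5 and a ratio of -0.67 (-0.76 to -0.57), was the only class II gene past 1.5-fold there and was lower, as 22.8% of all genes were (4.09% higher). With TMM its ratio was -0.34, no longer past 1.5-fold, and H2-Aa was past it and higher, at 0.67, as 13.5% of all genes were (10.5% lower).

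The other classes had higher medians. H2-Aa had 3069 CPM at D0 and 5297 at D5 in preDC-like nuclei (log2 ratio 0.79, interval 0.70 to 0.88), 6123 and 8142 CPM in Ccr7+ DC-like nuclei (log2 ratio 0.41, interval 0.36 to 0.46) and 2101 and 3083 CPM in pDC-like nuclei (log2 ratio 0.55, interval 0.51 to 0.59). These ratios were larger than that in cDC2-like nuclei, which had 9679 and 11064 CPM (log2 ratio 0.19, interval 0.18 to 0.21). The median was 0.49 in preDC-like, 0.45 in Ccr7+ DC-like and 0.46 in pDC-like nuclei, and all 10 genes were higher at D5 in each. In every one of these classes 2 of the 10 genes were higher past 1.5-fold, which was the case for 13.9%, 14.0% and 6.16% of all genes. The median was 0.27 in macrophage-like nuclei (1 gene past 1.5-fold, 5.63% of all genes), 0.68 in nonclassical monocyte-like nuclei (6 genes, 15.2%), 0.43 in NK cell-like nuclei (3 genes, 6.43%) and 0.72 in T cell-like nuclei (7 genes, 10.4%). With TMM 9 of 10 genes were higher past 1.5-fold in preDC-like (23.4% of all genes), 6 in Ccr7+ DC-like (19.4%) and 6 in pDC-like nuclei (9.6%). The counts with TMM were 4 in macrophage-like (15.2% of all genes), 9 in nonclassical monocyte-like (24.1%), 6 in NK cell-like (12.7%) and 9 in T cell-like nuclei (16.9%).

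Because the lymphoid level of these genes was itself higher at D5, the differences were also set side by side in CPM. H2-Aa was higher at D5 by 1044 CPM in lymphoid nuclei, by 982 in pDC-like, 1385 in cDC2-like, 1673 in cDC1-like, 2019 in Ccr7+ DC-like, 2227 in preDC-like and 3042 in macrophage-like nuclei. For Cd74 the difference was 1264 CPM in lymphoid, 1222 in pDC-like, 627 in cDC2-like and 3404 in preDC-like nuclei. The pDC-like differences of both genes were therefore about as large as the lymphoid ones, while the preDC-like and macrophage-like differences of H2-Aa were larger than the lymphoid one. Within the 3 finer macrophage-like clusters H2-Aa was also higher at D5, with log2 ratios of 0.48 (led by Klra2), 0.30 (led by Mertk) and 0.36 (led by Inhba). How much of a day difference came from background was not tested.

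Ciita is the transcriptional master regulator of class II genes, and its RNA was lower at D5 over all cDC1-like nuclei. It measured 381 CPM at D0 and 262 at D5 in cDC1-like nuclei, a log2 ratio of -0.54 (95% interval -0.63 to -0.45). In cDC2-like nuclei it had 345 and 365 CPM, a ratio of 0.08 (95% interval 0.00 to 0.17). In preDC-like nuclei it had 136 and 195, in Ccr7+ DC-like nuclei 169 and 231 and in macrophage-like nuclei 292 and 238 CPM at D0 and D5. In pDC-like nuclei it had 53.98 and 57.4 CPM against lymphoid levels of 28.9 and 38.01 CPM. Of the 5 named dendritic cell classes, cDC1-like nuclei alone had less Ciita RNA at D5, also with TMM, where the ratios were -0.21 in cDC1-like and 0.37 in cDC2-like nuclei, and the difference between these classes was not tested. Within the finer macrophage-like clusters the Ciita ratio was -0.64 (-0.94 to -0.33) in the one led by Mertk and -0.19 (-0.47 to 0.10) in that led by Klra2. It was -1.52 in that led by Inhba, with 4 UMIs at D5. With TMM these were -0.33, 0.14 and -1.75. The cDC1-like class was made of 3 clusters whose shares differed between days. The one with the most Ciita RNA, 659.9 CPM at D0 and 478 at D5, held 478 of 1748 nuclei at D0 but 227 of 3126 at D5. Within clusters the log2 ratio was -0.47 (-0.65 to -0.28) in that one, -0.20 (-0.32 to -0.07) in the largest and -0.25 (-0.52 to 0.01) in the one led by cell cycle genes. With TMM these were -0.30, 0.07 and -0.05, so the direction turned in the largest cluster. H2-Aa, H2-Ab1 and Cd74 had ratios of 0.34, 0.24 and 0.17 in cDC1-like nuclei.

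Start sites of class II genes were more open in cDC2-like nuclei at D5 by a small margin. Accessibility is given as fragments in the gene's regions per 1000000 fragments in shared regions (FPM). At H2-Aa cDC2-like nuclei had 64.8 FPM at D0 and 76.1 at D5, cDC1-like nuclei 59.2 FPM at D0 and 63.7 at D5, whereas pDC-like nuclei had 40.5 FPM at D0 and 43.7 at D5 and preDC-like nuclei 23.9 FPM at D0 and 41.8 at D5. NK cell-like nuclei had 10.9 and 15.2 FPM and T cell-like nuclei 8.25 and 10.8 FPM on the same days. In cDC2-like nuclei 9 of 10 class II genes had more fragments at D5, with a median log2 ratio of 0.21 (0.08 to 0.34) against -0.01 over all genes, and none was past 1.5-fold, where 1.29% of all genes were higher and 7.43% lower. In preDC-like nuclei 2 of 10 were higher by at least 1.5-fold (7.16% of all genes, 7.71% lower), among them H2-Aa with 0.81 (0.15 to 1.54). The median was 0.45 there.

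In pDC-like nuclei RNA and accessibility of the class II genes stood apart. Their class II start sites had a median log2 ratio over cDC2-like nuclei of -0.70 at D0, with 6 of 10 genes lower past 1.5-fold (15.1% of all genes), while the RNA median was -2.45. In NK cell-like and T cell-like nuclei, whose class II RNA levels were similar to those of pDC-like nuclei, the accessibility medians were -2.43 and -2.92, with 8 and 9 of 10 genes past 1.5-fold (17.9% and 19.4% of all genes). At the Cd74 start site pDC-like nuclei had 51.2 FPM at D0, cDC2-like nuclei 84.2, NK cell-like nuclei 8.40 and T cell-like nuclei 5.62. H2-DMa was not lower in these classes, since its regions had 135 FPM in NK cell-like and 149 in T cell-like nuclei beside 119.6 in cDC2-like nuclei, and H2-Oa was not past 1.5-fold in NK cell-like nuclei, with 25.3 FPM beside 31.96. The H2-DMa value sums 3 regions near listed start sites that ran from 34122832 to 34135654. They were not read apart, so the sum does not show which of them was open in lymphoid nuclei. In preDC-like nuclei the accessibility median was -0.63 with 5 of 10 genes past 1.5-fold (16.0% of all genes), and in cDC1-like nuclei it was -0.12 with 0 genes past 1.5-fold (6.54% of all genes).

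**Figure D2:**
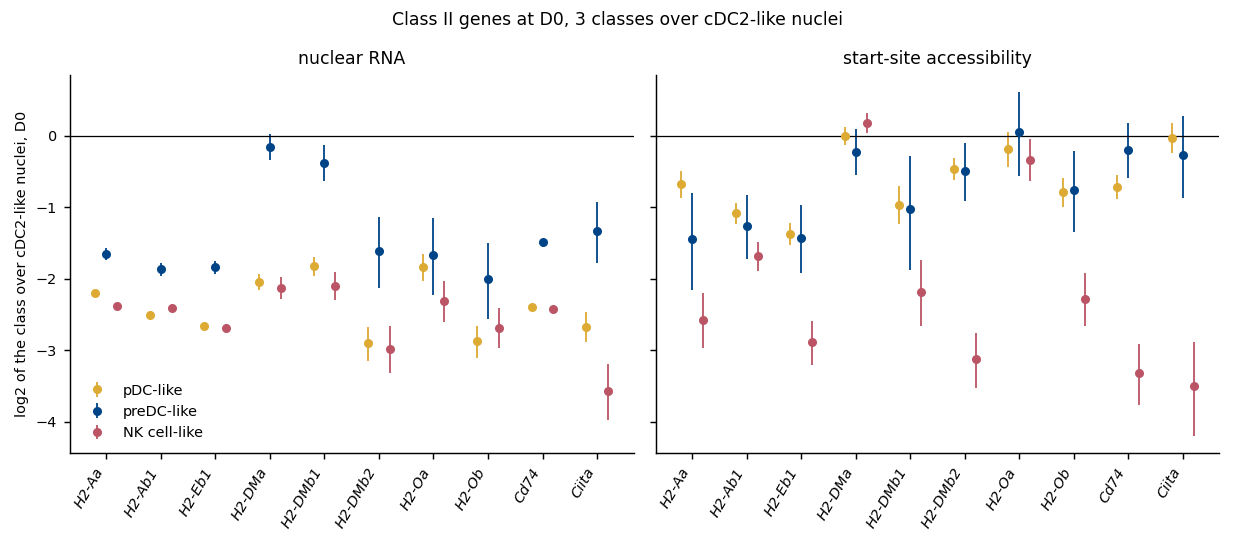
RNA (left) and start-site accessibility (right) of each class II gene in pDC-like, preDC-like and NK cell-like nuclei at D0, as the log2 ratio over cDC2-like nuclei with bars for the 95% counting interval. The pDC-like medians were -2.45 for RNA and -0.70 for accessibility, and the NK cell-like medians -2.42 and -2.43.

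At Ciita the classes opened different regions, which the sum over its windows does not show. The gene is known to have alternative promoters whose use differs between conventional and plasmacytoid dendritic cells. It held 4 shared regions on chromosome 16 of mm10, which was named in the submitters' processing notes, and its listed start sites ran from 10480059 to 10489783. The region at chr16:10479519-10480442, over the first start site, had 22.01 FPM in cDC1-like, 12.2 in cDC2-like, 12.04 in macrophage-like and 3.18 in pDC-like nuclei at D0. The region at chr16:10487596-10488491, between the first and the last start site, had 27.8 FPM in pDC-like, 15.1 in preDC-like, 12.2 in cDC1-like and 13.5 in cDC2-like nuclei. The NK cell-like class had 0.666 and 0.915 FPM at these regions. The log2 ratio of pDC-like over cDC2-like nuclei was -1.93 (-2.55 to -1.35) at D0 and -1.61 (-2.26 to -1.02) at D5 in the region over the first start site, and 1.04 (0.72 to 1.37) and 0.95 (0.68 to 1.22) in the region between the start sites. The signs were opposite in these regions, and neither interval reached 0 on either day. Over the last start site, at chr16:10489043-10489867, the ratio was -0.35 (-0.84 to 0.14) at D0 and -0.12 (-0.60 to 0.34) at D5. In the remaining region, at chr16:10477227-10478138, it was -1.34 (-2.05 to -0.66) at D0 and -2.05 (-3.15 to -1.11) at D5. preDC-like nuclei had 9.31 FPM at D0 and 12.96 at D5 over the first start site and 15.1 and 18.7 between the start sites. At D0 these values lay between those of cDC2-like and pDC-like nuclei, with wide intervals. At D5 the preDC-like value over the first start site was above the 11.05 FPM of cDC2-like nuclei, by a log2 ratio of 0.23 (-0.19 to 0.64). In cDC1-like nuclei the region over the first start site had 22.01 FPM at D0 and 21.9 at D5, a ratio of -0.01 (-0.29 to 0.27). The region at chr16:10477227-10478138 had 5.81 FPM at D0 and 3.39 at D5 in these nuclei, a ratio of -0.78 (-1.43 to -0.14). Between the start sites the ratio was -0.10 (-0.48 to 0.29), and over the last start site 0.17 (-0.23 to 0.57).

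**Figure D3:**
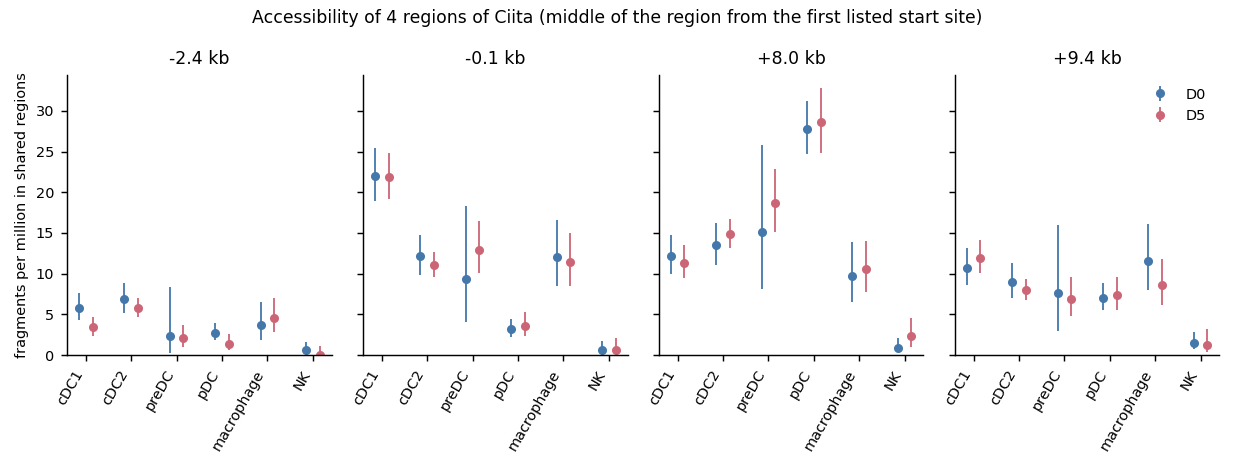
Accessibility in FPM of the regions at Ciita in each class at D0 and D5, 1 panel a region, with bars for the 95% counting interval. pDC-like nuclei stood at 3.18 FPM over the first start site and at 27.8 FPM between the start sites at D0, and cDC1-like nuclei at 22.01 and 12.2 FPM.

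The promoter sequences were read to see what the class II and class I start sites share. Class II promoters carry conserved X and Y boxes, bound by RFX, CREB and NF-Y, which recruit Ciita, and Nlrc5 acts in a like way at class I promoters. RefSeq promoters of build GRCm38.p6, the assembly that mm10 names, were given for 26 of the 34 genes. The letters TGANG, then 15 to 25 bases, then ATTGG, which reads CCAAT on the other strand, were searched on both strands within 250 bases before the start site, and the letters were chosen after these sequences had been seen. They occurred in 808 of 32851 promoters (2.46%), in 5 of 7 class II genes with an entry, in 3 of 12 class I genes, in 0 of 5 endolysosomal genes and in 0 of 2 cross-presentation genes. ATTGG alone occurred in 33.8% of promoters and TGANG alone in 84.8%. The 8 stretches are shown 5′ to 3′ on the gene's strand because they let the class II and class I genes be compared base by base, and capitals mark the searched letters.
H2-Aa: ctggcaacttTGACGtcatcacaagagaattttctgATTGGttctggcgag
H2-Eb1: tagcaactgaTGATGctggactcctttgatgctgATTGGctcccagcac
H2-DMb1: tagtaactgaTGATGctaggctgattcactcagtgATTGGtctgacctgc
H2-DMb2: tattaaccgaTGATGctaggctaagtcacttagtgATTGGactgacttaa
H2-Ob: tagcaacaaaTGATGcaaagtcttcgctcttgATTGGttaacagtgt
H2-K1: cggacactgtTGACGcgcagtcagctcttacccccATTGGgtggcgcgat
H2-D1: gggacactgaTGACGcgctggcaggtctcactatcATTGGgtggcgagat
B2m: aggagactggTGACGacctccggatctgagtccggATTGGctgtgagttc

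The H2-Aa stretch lay at chr17:34287857-34287907 on the minus strand, that of H2-Eb1 at chr17:34305774-34305822, that of H2-DMb1 at chr17:34153095-34153144, that of H2-DMb2 at chr17:34145124-34145173 and that of H2-Ob at chr17:34238816-34238862, all on the plus strand. For class I the stretches lay at chr17:34000349-34000398 on the minus strand for H2-K1, and on the plus strand at chr17:35262983-35263032 for H2-D1 and at chr2:122147599-122147648 for B2m. A match is a run of letters and not a measured binding site. All 8 stretches lay inside a region that was accessible in both libraries.

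The endolysosomal genes split by member rather than moving together. Ifi30, a thiol reductase that opens disulfide bonds of endocytosed protein, had 796 CPM at D0 and 1471 at D5 in cDC2-like nuclei, a log2 ratio of 0.89 (0.83 to 0.94). It had 337 and 588 CPM in cDC1-like, 870.2 and 1359 in preDC-like and 1333 and 1480.1 in Ccr7+ DC-like nuclei, with a ratio of 0.15 in the last. Ifi30 was higher at D5 in all 9 classes and past 1.5-fold in 7 of them, but its lymphoid level also differed, from 188 to 404 CPM, and its part in the other classes was not tested. Ctss, the protease that trims the invariant chain in dendritic cells, had 1224 CPM at D0 and 1742 at D5 in cDC2-like nuclei (log2 ratio 0.51, interval 0.47 to 0.55) and was higher at D5 in all 9 classes, with 231 and 464 CPM in lymphoid nuclei.

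Ctsl, another cysteine protease of the endolysosome, was lower at D5 by at least 1.5-fold in all 9 classes in CPM. With TMM it was lower in all 9 and past 1.5-fold in 6, the ratio being -0.49 in preDC-like, -0.58 in macrophage-like and -0.39 in nonclassical monocyte-like nuclei. Its highest level was in pDC-like nuclei, with 567 CPM at D0 and 288 at D5 and a ratio of -0.98 (-1.08 to -0.87). cDC2-like nuclei had 77.8 and 36.8 CPM and NK cell-like nuclei 83.6 and 40.8 CPM on the same days, so that at D0 the log2 ratio of pDC-like over cDC2-like nuclei was 2.86. In cDC1-like nuclei it had 51.8 and 26.5 CPM. The lymphoid level was 81.9 CPM at D0 and 40.3 at D5, above the cDC1-like and cDC2-like levels on both days, and its part in their day differences was not tested. Lgmn, an asparaginyl endopeptidase, had 315 CPM at D0 and 612 at D5 in macrophage-like nuclei (log2 ratio 0.96, interval 0.82 to 1.10) and 189 and 184 CPM in cDC2-like nuclei. The macrophage-like ratio was 0.44 (0.18 to 0.71) in the finer cluster led by Klra2 and 0.71 (0.50 to 0.92) in the one led by Mertk, both below that of the whole class, and the one led by Inhba had 173 and 525 CPM. Lgmn was therefore higher at D5 within each finer cluster, also with TMM, where the ratios were 0.76, 1.01 and 1.38. The part of the mixture in the difference over the whole class was not tested. Ctsb had its highest level in nonclassical monocyte-like nuclei, 952 CPM at D0 and 676 at D5, and 572 and 514 CPM in pDC-like nuclei. Ctsd, an aspartyl protease, had 512 CPM at D0 and 446 at D5 in NK cell-like nuclei against 58.2 and 48.4 CPM in cDC2-like and 184 and 275 in macrophage-like nuclei. Of the finer macrophage-like clusters, the one led by Mertk had 244 and 511 CPM of Ctsd. The one led by Klra2 had 119 and 116 CPM, and the one led by Inhba 187 and 157 CPM.

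Between classes, all 6 endolysosomal genes were lower in cDC1-like than in cDC2-like nuclei at D0, 5 of them by at least 1.5-fold (14.1% of all genes), with a median of -1.19 against 0.19 over all genes. Ctsd and Ctsl were among the 5, although their lymphoid levels at D0, 495 and 81.9 CPM, were above those of both classes. The part of that background was not tested. In macrophage-like nuclei 5 of 6 were higher than in cDC2-like nuclei past 1.5-fold, where 17.6% of all genes were, with a median of 0.70 at D0 and 1.23 at D5. Accessibility at the Ifi30 start site was 125 FPM at D0 and 136 at D5 in cDC2-like, 61.4 and 63.5 in cDC1-like and 19.4 and 24.2 in NK cell-like nuclei, so that it differed by class while the difference between days in cDC2-like nuclei was 0.13 (0.02 to 0.23).

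Over all 34 genes, 5 were past 1.5-fold between days in cDC1-like nuclei and 7 in cDC2-like nuclei, counting both directions, where 26.9% and 26.4% of all genes were.

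**Figure D4:**
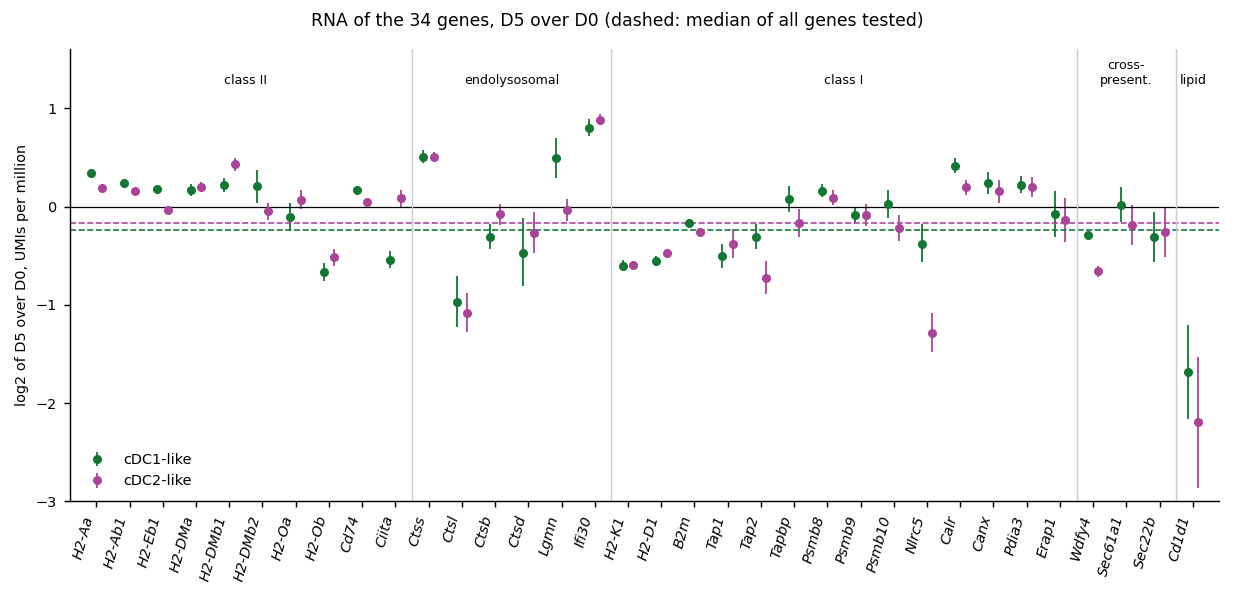
Log2 ratio of D5 over D0 in RNA (CPM) for each of the 34 genes in cDC1-like and cDC2-like nuclei, grouped by role, with bars for the 95% counting interval and dashed lines at the medians of all genes tested. Ifi30 stood highest at 0.89 and Cd1d1 lowest at -2.20 in cDC2-like nuclei, where the Cd1d1 level was below that of lymphoid nuclei on both days, and Ciita stood at -0.54 in cDC1-like and 0.08 in cDC2-like nuclei.

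Class I genes had another distribution across classes than class II genes. H2-K1, a classical class I heavy chain, had 4139 CPM in NK cell-like, 4141 in T cell-like and 2764 in Ccr7+ DC-like nuclei at D0. It had 1631 CPM in cDC2-like, 1269.6 in pDC-like and 984 in cDC1-like nuclei. H2-D1, the other classical heavy chain here, had 3475 CPM in NK cell-like, 1948 in cDC2-like and 1044 in pDC-like nuclei. B2m, the light chain, had 3844 CPM in NK cell-like, 3727 in Ccr7+ DC-like, 1398 in cDC1-like and 2103 in cDC2-like nuclei. Heavy chain genes have near-identical copies, and how their reads were divided is uncertain.

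Over the 14 class I genes the median log2 ratio over cDC2-like nuclei at D0 was 0.79 in Ccr7+ DC-like, 0.62 in NK cell-like and 0.72 in T cell-like nuclei, with 9, 8 and 9 of 14 genes higher past 1.5-fold. Of all genes 17.5%, 32.6% and 32.1% were higher by that much. With TMM the counts were 9, 2 and 2 of 14, beside 16.5%, 20.8% and 18.2% of all genes. In pDC-like nuclei the median was -0.39 and 1 gene was higher past 1.5-fold, as 35.2% of all genes were. It was Nlrc5, the transcriptional activator of class I genes, with 0.67. In the same contrast 4 genes were lower past 1.5-fold (22.2% of all genes), namely H2-D1 with -0.90, B2m with -0.62, Psmb8 with -0.88 and Calr with -0.86. With TMM 0 were higher and 7 lower (27.0% and 28.1% of all genes). In cDC1-like nuclei 4 class I genes were higher than in cDC2-like nuclei past 1.5-fold at D0, where 23.3% of all genes were, and 3 were lower, where 14.1% were. The ratio was 0.83 (0.66 to 0.99) for Tap1 and 0.77 (0.59 to 0.94) for Tap2, the subunits of the peptide transporter, and 1.02 (0.90 to 1.14) for Psmb9, a subunit of the immunoproteasome, and 0.68 for Pdia3, a disulfide isomerase of the loading complex. The other inducible proteasome subunits had 0.53 (0.44 to 0.62) for Psmb8 and -0.07 (-0.24 to 0.10) for Psmb10. H2-K1, H2-D1 and B2m were lower there, with -0.73 (-0.78 to -0.67), -0.62 (-0.67 to -0.57) and -0.59 (-0.64 to -0.54). With TMM 2 genes were higher, Psmb9 and Tap1 (15.8% of all genes), and 3 lower (18.5%).

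**Figure D5:**
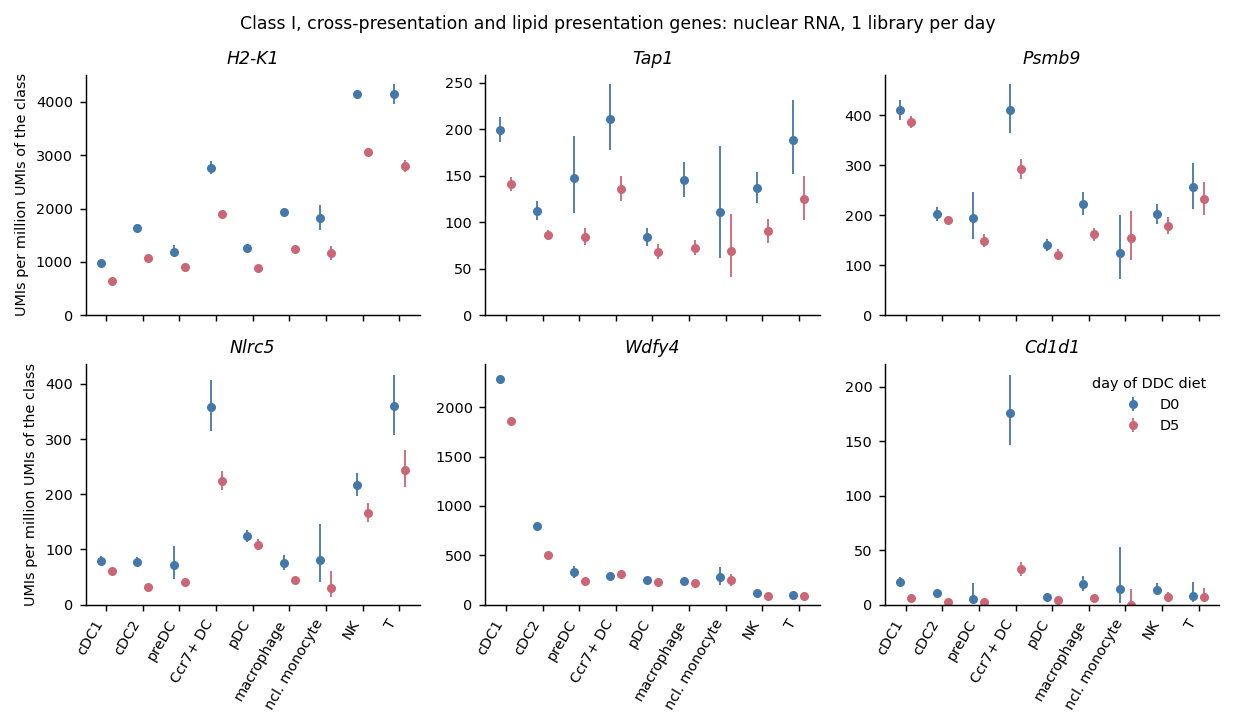
RNA level in CPM of 4 class I genes, Wdfy4 and Cd1d1 in each of the 9 classes at D0 and D5, 1 panel a gene, with bars for the 95% counting interval. H2-K1 stood at 4139 CPM in NK cell-like and 984 CPM in cDC1-like nuclei at D0, and its D5 point was lower in each of the 9.

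Among the class I genes, the classical heavy chains, the TAP transporter and Nlrc5 were lower at D5 across classes. H2-K1 had 1631 CPM at D0 and 1082 at D5 in cDC2-like nuclei (log2 ratio -0.59, interval -0.63 to -0.55), 984 and 648 in cDC1-like (log2 ratio -0.60, interval -0.66 to -0.55) and 4139 and 3061 in NK cell-like nuclei. H2-D1 had 1948 CPM at D0 and 1404 at D5 in cDC2-like nuclei (log2 ratio -0.47, interval -0.51 to -0.44) and 1265 and 862 in cDC1-like nuclei (log2 ratio -0.55, interval -0.60 to -0.50). Nlrc5 had 78.04 CPM at D0 and 32.1 at D5 in cDC2-like nuclei (log2 ratio -1.28, interval -1.48 to -1.08), 79.7 and 61.4 in cDC1-like, 358 and 225 in Ccr7+ DC-like and 359 and 245 in T cell-like nuclei. H2-K1, H2-D1, Tap1 and Tap2 were lower at D5 in 9 of 9 classes, and Nlrc5 in 8 of 8 where it passed the count minimum. These classes share 1 library per day, and the share of all genes lower in every class was not computed. With TMM these directions remained except that Tap2 was lower in 8 of 9. Within the macrophage-like class the direction of Tap1 depended on the finer cluster. With TMM that of H2-D1 did too, with ratios of 0.08 (led by Klra2), 0.15 (Mertk) and -0.60 (Inhba). In CPM the H2-D1 ratios were -0.24, -0.15 and -0.37. H2-K1, Tap2 and Nlrc5 were lower within each finer cluster in CPM and with TMM, but each Nlrc5 interval covered both directions. The Nlrc5 ratios in CPM were -0.40 (-1.11 to 0.36) in the cluster led by Klra2, -0.47 (-1.14 to 0.24) in that led by Mertk and -0.42 (-2.74 to 1.18) in that led by Inhba. With TMM the Klra2 value was -0.08.

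B2m, lower in 9 of 9 classes in CPM, was higher in 7 of 9 with TMM. Over the 14 class I genes, the median in cDC2-like nuclei was -0.19 (-0.33 to -0.05) in CPM and 0.09 with TMM. There 3 genes, H2-K1, Tap2 and Nlrc5, were lower past 1.5-fold in CPM (20.1% of all genes) and 1, Nlrc5, with TMM (10.9%). In cDC1-like nuclei it was -0.08 (-0.24 to 0.08) in CPM and 0.25 with TMM, with 1 gene, H2-K1, lower past 1.5-fold in CPM (22.8% of all genes). With TMM H2-K1 was at -0.27, and Calr was past 1.5-fold and higher, at 0.74 (13.5% of all genes). Over all genes the medians in CPM were -0.17 and -0.24.

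Tap1 had 145 CPM at D0 and 72.5 at D5 in macrophage-like nuclei (log2 ratio -1.001, interval -1.25 to -0.75), 199.7 and 141 in cDC1-like and 113 and 86.7 in cDC2-like nuclei. Tap2 had 125 and 51.3 CPM in macrophage-like and 100.3 and 60.8 in cDC2-like nuclei. Within the finer macrophage-like clusters Tap1 had 68.8 and 70.3 CPM at D0 and D5 in the one led by Mertk, a log2 ratio of 0.03 (-0.55 to 0.65), and 124 and 72.1 CPM in the one led by Klra2, a ratio of -0.79 (-1.26 to -0.29). In the cluster led by Inhba, which had only 14 nuclei at D5, it had 214 and 105 CPM, a ratio of -1.03 (-2.92 to 0.36), so the Tap1 difference over all macrophage-like nuclei was not seen in the Mertk cluster. With TMM these ratios were 0.34, -0.46 and -1.26. Tap2 was lower within the clusters led by Mertk and Klra2, with ratios of -0.90 (-1.49 to -0.29) and -1.14 (-1.66 to -0.61), and its ratio was -1.55 (-4.61 to 0.34) in the one led by Inhba. An unnamed cluster led by Cxcl10 and Cxcl9, chemokines induced by interferon, had 342 and 251 CPM of Tap1, the highest levels of this gene in any class named here, and a class I median of 0.70 over cDC2-like nuclei at D0. In macrophage-like nuclei 6 of 14 class I genes were lower past 1.5-fold (22.5% of all genes) with a median of -0.45, and in Ccr7+ DC-like nuclei 4 were lower (15.9% of all genes) with a median of -0.43. Within the finer macrophage-like clusters the class I median was -0.22 (led by Klra2), -0.15 (Mertk) and -0.61 (Inhba), and with TMM 0.10, 0.16 and -0.84, so 2 of the 3 were closer to 0 than that of the whole class in CPM and above 0 with TMM. How much of the macrophage-like day difference came from the mixture was not tested. The counts were 3 in preDC-like (21.5% of all genes), 1 in pDC-like (11.9%), 2 in NK cell-like (16.7%), 2 in T cell-like nuclei (18.2%), and 3 in nonclassical monocyte-like nuclei (20.7%). With TMM 2 genes, Tap1 and Tap2, were lower past 1.5-fold in macrophage-like (11.0% of all genes) and 1, Tap2, in preDC-like (10.9%) and in nonclassical monocyte-like nuclei (10.2%). The count with TMM was 0 in Ccr7+ DC-like (10.9%), pDC-like (7.68%), NK cell-like (8.92%) and T cell-like nuclei (9.73%). The 10 NK cell markers, whose cells had high class I levels, summed to 885 CPM in cDC2-like nuclei at D0 and 517 at D5, and to 792 and 517 in cDC1-like nuclei. They were lower at D5 together with the class I genes, and their part in that difference was not tested.

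The remaining class I genes were below 1.5-fold between days in cDC1-like and cDC2-like nuclei in CPM. Psmb8, an inducible proteasome subunit, had 594 CPM at D0 and 666 at D5 in cDC1-like nuclei and 413 and 439.9 CPM in cDC2-like nuclei. Psmb9 had 409.7 CPM at D0 and 387 at D5 in cDC1-like nuclei and 202 and 190.3 CPM in cDC2-like nuclei. Psmb10, the remaining inducible subunit, had 140.0 CPM at D0 and 120.3 at D5 in cDC2-like nuclei. Tapbp, which tethers class I to the transporter, had 126 and 112 CPM there, and Erap1, which trims peptides in the endoplasmic reticulum, had 50.8 and 46.1 CPM. The chaperones of the loading complex had ratios in cDC1-like nuclei of 0.41 (0.34 to 0.49) for Calr, 0.24 (0.13 to 0.35) for Canx and 0.22 (0.13 to 0.31) for Pdia3. In CPM Calr was higher at D5 in 7 of 9 classes, Canx in 8 and Pdia3 in 5, and with TMM in 9, 9 and 8. In macrophage-like nuclei Tapbp had -0.76 and Psmb10 -0.62, which were -0.45 and -0.32 with TMM. In the finer clusters led by Mertk and Klra2 the ratios in CPM were nearer 0, -0.19 and -0.37 for Tapbp and -0.14 and -0.40 for Psmb10.

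In CPM and FPM, accessibility at the class I heavy chain start sites differed less between days than RNA did. In cDC2-like nuclei H2-K1 had 74.6 FPM at D0 and 77.3 at D5 (log2 ratio 0.05, interval -0.09 to 0.19) and H2-D1 86.5 and 89.5 FPM (log2 ratio 0.05, interval -0.08 to 0.18), while their RNA ratios were -0.59 and -0.47. With TMM the accessibility ratios were 0.17 and 0.16 and the RNA ratios -0.31 and -0.19, so for H2-D1 the 2 differences were of similar size and opposite sign. Nlrc5 had 18.7 FPM at D0 and 18.5 at D5 in cDC2-like nuclei (log2 ratio -0.01, interval -0.29 to 0.27) against an RNA ratio of -1.28, and 37.6 and 44.2 FPM in NK cell-like and T cell-like nuclei at D0. Its accessibility rests on 1 shared region, while its listed start sites ran from 94434391 to 94525067 on chromosome 8. Any start site far from both ends of that range was not read. The accessibility median over the 14 genes was 0.02 (-0.19 to 0.23) in cDC2-like nuclei, with none past 1.5-fold, where 1.29% of all genes were higher and 7.43% lower. Tap1 and Psmb9 share a single region, chr17:34187028-34187958, so their accessibility is 1 measurement.

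Cross-presentation was described by 3 genes. Wdfy4, which cDC1 need for cross-presentation of cell-associated antigen, had 2280.4 CPM in cDC1-like, 793 in cDC2-like, 328 in preDC-like and 246 in pDC-like nuclei at D0, against 113 in lymphoid nuclei. At D5 it had 1863 CPM in cDC1-like (log2 ratio -0.29, interval -0.33 to -0.26, but slightly above 0 with TMM) and 502 in cDC2-like nuclei (log2 ratio -0.66, interval -0.72 to -0.60), so the log2 ratio between both classes was 1.52 (1.47 to 1.58) at D0 and 1.89 (1.85 to 1.93) at D5. Accessibility did not follow this order, since the Wdfy4 start site had 33.3 and 40.3 FPM in cDC1-like and 44.1 and 45.7 FPM in cDC2-like nuclei at D0 and D5, and 4.49 FPM in NK cell-like nuclei at D0. The 12 cDC1 markers summed to 781 CPM in cDC2-like nuclei at D0 and 512 at D5. They were lower at D5 together with Wdfy4 RNA, and their part in its difference was not tested. Sec61a1, a channel subunit of the endoplasmic reticulum, had 138 CPM in pDC-like and 60.3 in cDC2-like nuclei at D0 (log2 ratio 1.20, interval 0.98 to 1.42). Sec22b, a SNARE protein that links the endoplasmic reticulum with phagosomes, had 59.3 and 39.5 CPM in the same classes (log2 ratio 0.59, interval 0.29 to 0.88). In this contrast 35.2% of all genes were higher past 1.5-fold. Its TMM log2 factor was 0.22, and with TMM Sec22b was below that fold. Lymphoid nuclei had 73.2 CPM of Sec61a1 and 49.5 of Sec22b at D0. These were 121% and 125% of the cDC2-like levels and 84.2% and 105% of the cDC1-like ones. At D5 Sec61a1 was lower in 6 of 9 classes in CPM and Sec22b in 5 of 8, but with TMM both were higher in 6.

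Cd1d1, which presents lipid antigen to NKT cells, had the largest ratio between days of the 34 genes in Ccr7+ DC-like, cDC2-like and cDC1-like nuclei. In Ccr7+ DC-like nuclei it had 176 CPM (146 to 211) at D0 and 32.3 CPM (26.2 to 39.4) at D5, a log2 ratio of -2.45 (95% interval -2.85 to -2.05). It had 20.4 and 6.36 CPM in cDC1-like nuclei (log2 ratio -1.68, interval -2.16 to -1.20), 10.3 and 2.25 in cDC2-like nuclei (log2 ratio -2.20, interval -2.86 to -1.53) and 18.6 and 5.84 in macrophage-like nuclei (log2 ratio -1.67, interval -2.51 to -0.85). Cd1d1 was lower past 1.5-fold in all 6 of the 9 classes in which it passed the count minimum, also with TMM. Within the finer macrophage-like clusters it passed that minimum only in the one led by Klra2, with -1.53 (-2.96 to 0.04). Its lymphoid level was 12.7 CPM at D0 and 7.15 at D5, which was above the cDC2-like level on both days, and the cDC1-like and macrophage-like levels at D5 were also below it, so of these classes the Ccr7+ DC-like one alone stood clear of that background on both days. Its accessibility was 23.2 FPM at D0 and 15.9 at D5 in cDC1-like nuclei (log2 ratio -0.55, interval -0.85 to -0.25) and 26.4 and 21.1 FPM in Ccr7+ DC-like nuclei (log2 ratio -0.32, interval -0.93 to 0.31).

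A list of 30 further genes of the same pathways, 28 of which were found in the files, was read beside the 34. In cDC2-like nuclei 10 of them were higher and 18 lower at D5, with 7 lower past 1.5-fold (20.1% of all genes) and 0 higher (6.26%), and in cDC1-like nuclei 10 were higher and 18 lower with 6 past 1.5-fold, all lower (22.8% of all genes lower, 4.09% higher). With TMM 3 were higher and 3 lower past 1.5-fold in cDC2-like nuclei (16.5% and 10.9% of all genes), and 4 and 4 in cDC1-like nuclei (13.5% and 10.5%), shares close to those over all genes. Their median log2 ratio in cDC2-like nuclei was -0.21 in CPM and 0.07 with TMM. Of these, 4 reached 2-fold in cDC2-like or cDC1-like nuclei. H2-Q6, a nonclassical class I heavy chain, had 224 CPM at D0 and 50.3 at D5 in cDC2-like nuclei (log2 ratio -2.15) and -2.10 as its ratio in cDC1-like nuclei. H2-Q7 had 338 CPM at D0 and 104 at D5 (log2 ratio -1.71) and H2-Q4 105 CPM at D0 and 38.99 at D5 (log2 ratio -1.43) in cDC2-like nuclei. Irf1, a transcription factor of the interferon response that acts on class I genes, had 98.7 CPM at D0 and 45.00 at D5 in cDC1-like nuclei (log2 ratio -1.13) and a ratio of -0.72 in cDC2-like nuclei. H2-Q4, H2-Q6, H2-Q7 and Irf1 were lower at D5 in all 9 classes, with TMM scaling too. The H2-Q genes are close copies of each other and of H2-K1 and H2-D1, and their reads may be divided between them.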

How the data were processed

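RNA and open chromatin were measured in 4 samples, the 2 layers of 1 library per day (DDC D0 and D5). The deposited RNA matrices held raw counts, UMIs per gene for each called barcode, from the authors' run of Cell Ranger (6.0.2 per the file headers). The deposited joint matrices held raw counts of genes and peaks for every barcode, from cellranger-arc 2.0.2 as run by the authors, peaks being called in each library alone; the submitters' notes name Cell Ranger ARC 2.0.2 and build mm10. Peak counts were halved to give fragments. The joint matrix of D5 was matched to the RNA matrix by identical counts over all genes, for 27873 of 27873 barcodes.

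Nuclei were required to hold 1000 UMIs or more, no more than 10% of them mitochondrial, and those with a Scrublet score of 0.2 or higher were removed as doublets (23.1% at D0, 25.5% at D5; expected rate 0.1). Both libraries were clustered jointly (on 30 principal components of 2000 variable genes, with 15 neighbours per nucleus and a Leiden resolution of 1.0; scanpy 1.11.5, leidenalg 0.10.2) without the 34 genes and the 30 other pathway genes. A cluster was named when at least 3 of its markers were raised at least 2-fold and led over other lists. Counts were summed per class and day. Peaks of both libraries that overlapped were merged into shared regions (127216 of 162879). Ratios have exact binomial intervals and levels exact Poisson intervals (scipy 1.17.1); TMM factors came from edgeR 4.0.16 in R 4.3.3. With 1 library per day no test was run; all genes with at least 20 counts over both sides formed the background. The scripts were tested on simulated data. The genes named were all 34 members, and other pathway genes at 2-fold or more. The members, lists and alternatives were chosen with earlier results of these data known.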

Additional observations from a re-analysis of the deposited data

Results flagged for a closer look

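The RNA of Ciita, the regulator of class II genes, had a log2 ratio of D5 over D0 of -0.54 in cDC1-like nuclei and 0.0834 in cDC2-like nuclei, with intervals of -0.63 to -0.45 and 0.00 to 0.17. It is listed because the 2 classes of the same libraries moved in opposite directions. The difference between the classes was not tested, since each day was 1 library, and with TMM the values were -0.21 and 0.37. Within the 3 clusters of the cDC1-like class the ratios were -0.20, -0.47 and -0.25 in CPM, closer to 0 than over the whole class, and 0.07, -0.30 and -0.05 with TMM.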

How the results depend on the processing

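For 8 group medians, 84 alternatives were computed, of which 60 were planned and 24 were added after the data had been seen (each cDC1-like or cDC2-like cluster alone, and the cluster led by Il1r2 and Dab2 counted as cDC2-like, among others). In 68 of the 84 the median stayed within the counting interval of the gene or genes in the middle, and in 16 it left that interval. The setting without a filter on low counts could not move any of the 8 medians, because all members had passed the filter. Its outcomes are among the 68. TMM scaling moved the class II median of D5 over D0 to 0.36 (cDC2-like) and 0.51 (cDC1-like), and the class I medians to 0.0936 and 0.25, which changed their sign. It moved the class II median of pDC-like over cDC2-like nuclei to -2.67 and the class I median of cDC1-like over cDC2-like nuclei to 0.000149, from 0.18. Without removal by doublet score the class II medians were 0.22 for D5 over D0 in cDC1-like nuclei and -1.45 for pDC-like over cDC2-like nuclei. The latter was -2.40 with at least 2000 UMIs per nucleus, -2.40 with nuclei thinned to 1000 UMIs, -2.40 as a mean over nuclei and -2.39 at Leiden resolution 0.5, where the class II median in cDC1-like nuclei was 0.15. In 1 of the cDC2-like clusters taken alone, cluster 9, the class II median of D5 over D0 was 0.35, and in the largest and in the cell cycle cluster of the cDC1-like class alone it was 0.15 and 0.0961. The cause of these moves was not tested. Values within the finer macrophage-like clusters, also added after the data had been seen, stand beside some of the macrophage-like results but not all.

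Of 68 RNA ratios of D5 over D0 for single genes in cDC1-like and cDC2-like nuclei, TMM changed the sign of 20. Of the 12 past 1.5-fold (26.9% of all genes were in cDC1-like and 26.4% in cDC2-like nuclei), 7 stayed past it with TMM and 0 changed sign. The 5 that did not were H2-K1 in both classes, H2-Ob in cDC1-like and Tap2 and Wdfy4 in cDC2-like nuclei. With at least 2000 UMIs per nucleus 8 of the 12 stayed past it, the losses being H2-K1 in both classes, H2-Ob and Wdfy4. In cDC2-like cluster 9 alone 3 of 6 stayed past it and in the cell cycle cluster of the cDC1-like class 1 of 4. No paired analysis was possible because each day was 1 library. Leaving out a replicate was not possible for the same reason. Depth kept Cd1d1 under the count minimum between days in 3 of the 9 classes and Nlrc5, Erap1 and Sec22b in 1, and preDC-like and nonclassical monocyte-like nuclei numbered 198 and 104 at D0.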
